A study of Mus musculus with 6 samples.

Results

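Fibromyocytes and smooth muscle cells (Fibromyo/SMCs) of the developing mouse lung were 373 of the 61839 cells in this single-cell RNA sequencing atlas (0.603%). They were the cells of 1 stromal cluster in the deposited cell annotation, the smallest of 6 stromal types, which together held 21985 cells. The lungs came from C57BL/6 pups that were kept from day 0 either in room air (21% O2, normoxia) or in 85% O2 (hyperoxia), with nursing dams rotated between the chambers every 48 h, and that were harvested at postnatal day 3 (P3), P7 or P14. Each of the 6 groups of age and oxygen held 6 mice, 36 in all. Lungs were perfused and digested with enzymes, the cells of each mouse were tagged with a barcode, and tagged cells were pooled and sequenced in 6 libraries, so a share of cells here is a share of the cells that survived digestion and capture. Of the 373 cells, 224 came from normoxic and 149 from hyperoxic mice, and 35 of the 36 mice had at least 1 such cell. The remaining mouse, in hyperoxia at P7, had only 125 cells of any type, and 0 of 125 allows a share of up to 2.4%. The median cell of the type had 5514 unique molecular identifiers (UMIs, each standing for 1 captured transcript) and 2213 detected genes, with a range of 506 to 24854 UMIs. Of the cell barcodes, 394 occurred in more than 1 library. None of these fell in Fibromyo/SMCs both times, and 4 Fibromyo/SMCs shared a barcode with a cell of another library.

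Smooth muscle cells ring the airways and the larger vessels of the lung and set their calibre. They contract when a rise in cytosolic calcium activates myosin light chain kinase, which lets smooth muscle myosin (Myh11) pull on actin filaments (Acta2, Actg2), and their contractile genes are switched on by serum response factor (Srf) together with its partner myocardin (Myocd) at short DNA elements called CArG boxes. Fibromyocytes are cells with features of both smooth muscle and matrix-producing fibroblasts, and myofibroblasts, the stromal neighbours with which they are most easily mixed up, lay down elastin while the alveoli form. High oxygen given to newborn mice is widely used to model bronchopulmonary dysplasia, in which alveolar growth is stunted and airway muscle is often overreactive.

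The deposited cell type column gives these 373 cells the name of myofibroblasts, and gives the name SMC to a larger cluster of 5089 cells. The genes of the 2 clusters went the other way, and the names used here are those under which the study describes them. Levels are given as CPM. All UMIs that the type gave in a mouse were set to 1000000, and the value is what a gene took of them. Fibromyo/SMC levels were averaged over the 19 mice with at least 10 Fibromyo/SMCs. Each other type was averaged over its own set of mice, those contributing 10 or more of its cells. Means of different types therefore cover different sets of mice, which can differ in age and oxygen. Since the clusters were built from these same genes, differences between types are a description and carry no test. Acta2, smooth muscle actin (chr19:34241090-34255590, minus strand, mm10), averaged 14756 ± 3372 CPM in Fibromyo/SMCs (SD, n = 19 mice; 8446 to 21287), 10704 CPM in the stromal cells called Pericytes 1 and 3433 CPM in myofibroblasts. Myh11, the smooth muscle myosin heavy chain (chr16:14194535-14291372, minus strand), averaged 2784 ± 1025 CPM against 1283 CPM in Pericytes 1 and 458 CPM in myofibroblasts. Actg2, the enteric form of smooth muscle actin (chr6:83512905-83536265, minus strand), averaged 4906 ± 2114 CPM against 1081 and 564 CPM. Des, the muscle intermediate filament desmin, averaged 3102 ± 926 CPM, with 589 CPM in myofibroblasts. All 4 markers thus had their highest mean in Fibromyo/SMCs. The ranges over mice overlapped those of Pericytes 1 for Myh11 (1407 to 4890 CPM against 379 to 3216 CPM). They overlapped for Acta2 too, where the Pericytes 1 mean lay within the Fibromyo/SMC range.

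Shares of cells were compared once depth was levelled. After each cell was thinned to 1000 UMIs, which dropped 6 Fibromyo/SMCs with fewer, 96.4% of the remaining cells had a UMI of Acta2, 81.5% of Myh11, 85% of Actg2 and 79.6% of Des. Without thinning these shares were 96.5%, 95.4%, 95.4% and 95.4%. In Pericytes 1 the thinned shares were 96.5%, 60.1%, 52.1% and 35.6%, so Myh11, Actg2 and Des were found in more Fibromyo/SMCs but Acta2 in about as many cells of both types. B cells, which should lack all 4 transcripts and had a median of 2181 UMIs per cell, gave 3.66%, 0.540%, 0.271% and 0.459% after thinning, which was read as the background level.

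Of 31 contractile genes listed for the analysis, 25 had their highest mean level among the 6 stromal types in Fibromyo/SMCs. They included the thin filament genes Tagln (transgelin, 10650 ± 1985 CPM against 7351 CPM in Pericytes 1), Cnn1 (calponin, 2648 ± 892 against 424 CPM) and Tpm2 (tropomyosin, 7126 ± 2313 against 2322 CPM), and the regulatory light chain Myl9 (3027 ± 713 against 1930 CPM). Actc1, the actin that dominates in heart muscle, stood at 5387 ± 2868 CPM in Fibromyo/SMCs, at 786 CPM in Pericytes 1 and at 11.4 CPM in myofibroblasts. Tnnt2, the cardiac troponin T, averaged 1641 ± 761 CPM against 119 CPM in Pericytes 1. Both activators of the programme were also highest here, Myocd at 167 ± 54.1 CPM against 83.4 CPM in Pericytes 1 and Srf at 82.2 ± 31.3 CPM against 50.7 CPM. The 6 exceptions were Csrp1, Cald1, Vcl, Actn1 and Tln1, which many adherent cells use, and the myosin phosphatase inhibitor Ppp1r14a, which averaged 356 CPM against 1359 CPM in the cells called Pericytes 2.

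Because Srf acts through CArG boxes, the RefSeq promoter windows of the contractile genes (assembly GRCm38.p6, 250 bases before to 50 bases after the start of the gene) were searched for that motif on both strands, where it reads alike. Of the 31 genes, 27 had a window and 5 of these held a match (18.5%), compared with 488 of all 27025 genes with a window (1.81%). The matches lay 161 bases before the start of Myl9, 82 and 62 bases before that of Srf itself, 50 bases before Myl6, 227 bases before Vcl and 47 bases before Actc1. The windows of Myl9 and Srf from 200 to 51 bases before the start are shown because one is a contractile gene and the other the factor that reads the motif. Capitals mark the CArG boxes, the Myl9 stretch is chr2:156775264-156775413 on the plus strand and the Srf stretch chr17:46556213-46556362 on the minus strand, both read 5′ to 3′.
Myl9: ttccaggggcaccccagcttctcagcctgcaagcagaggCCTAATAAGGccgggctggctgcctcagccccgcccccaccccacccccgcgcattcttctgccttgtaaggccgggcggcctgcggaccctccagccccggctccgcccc
Srf: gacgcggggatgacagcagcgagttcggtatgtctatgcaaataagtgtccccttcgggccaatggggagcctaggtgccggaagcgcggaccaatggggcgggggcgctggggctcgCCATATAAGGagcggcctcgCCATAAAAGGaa
A match gives the presence of the letters only, since binding was not measured, and the window of Acta2 did not hold those letters. Actg2, Myh11, Myocd and Tagln had no entry.

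Airway muscle genes were high in the type and vascular genes low. All 5 listed airway muscle genes were highest in Fibromyo/SMCs, among them Hhip, which binds hedgehog ligands (1392 ± 653 CPM against 371 CPM in myofibroblasts), and Chrm2, the muscarinic acetylcholine receptor M2 (486 ± 186 CPM against 4.82 CPM). Lgr6, a receptor for R-spondins that marks airway muscle, averaged 168 ± 95.5 CPM and Ednrb, the endothelin B receptor, 533 ± 228 CPM, against 58.9 and 150 CPM in myofibroblasts. Of 13 vascular and pericyte genes only 1 was highest here and 10 were highest in Pericytes 2. Notch3, which vascular muscle needs, averaged 2.81 CPM against 543 CPM in Pericytes 2, and the platelet-derived growth factor receptor Pdgfrb 16.9 CPM against 1722 CPM. Of 11 myofibroblast genes, 9 were highest in myofibroblasts. Tgfbi, a secreted matrix protein, averaged 986 ± 500 CPM against 3537 CPM in myofibroblasts, and the matrix glycoprotein Tnc 390 ± 128 CPM against 1141 CPM. Pdgfra, the receptor that marks alveolar myofibroblasts and their precursors, averaged only 1.74 CPM against 237 CPM. Aspn, a small matrix proteoglycan, stood at 2594 ± 1022 CPM, slightly above the 2053 CPM of myofibroblasts. Of 15 fibroblast genes and of 24 matrix genes, 1 each was highest in Fibromyo/SMCs, and Eln (elastin, chr5:134702593-134747323, minus strand), at 1606 ± 1751 CPM, ranked 5 of 6 among the types, below the 16121 CPM of Pericytes 1 and the 8847 CPM of myofibroblasts.

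**Figure D1:**
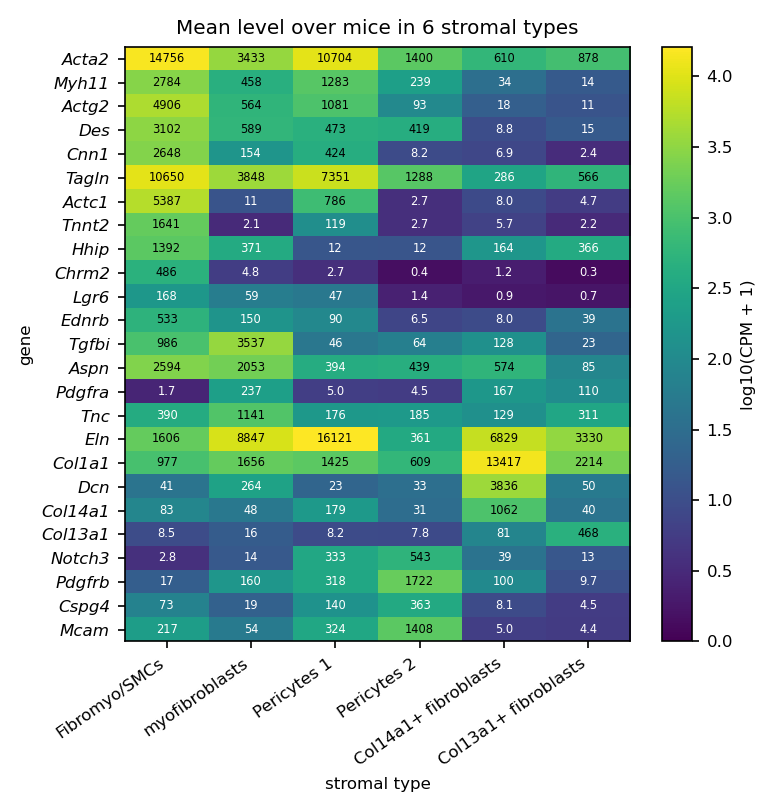
Heat map of 25 genes (rows) in the 6 stromal types (columns), with the mean CPM over mice printed in each field and log10(CPM + 1) as colour. Acta2, Myh11, Actg2, Des and the airway genes Hhip and Chrm2 are highest in Fibromyo/SMCs, while Eln is highest in Pericytes 1 and Notch3 and Pdgfrb in Pericytes 2.

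Not all members were smooth muscle. A list of 7 genes of heart muscle (Myl7, Myh6, Sln, Nppa, Tnni3, Myl4 and Actn2) was counted in each of the 373 cells, and 311 cells had a UMI of none of them, 41 of 1 and 5 of 2. A separate set of 16 cells had UMIs of 3 or more, 3 of these cells of all 7. In these 16 cells the atrial light chain Myl7 was found in 16 cells at 270 UMIs per 10000 UMIs, the cardiac troponin Tnni3 in 16 at 84.0 and the light chain Myl4 in 16 at 133, whereas in the other 357 cells they were found in 0, 2 and 27. That contrast follows largely from the choice, since these genes are in the list that picked the cells. Acta2 and Myh11 were not used to pick them. In the other direction, Acta2 was present in 3 of the 16 cells at 7.74 UMIs per 10000 but in all 357 others at 157 per 10000, and Myh11 in 0 of 16 but in 356 of 357 at 30.5 per 10000. The 16 cells were cardiac muscle-like by these markers and came from 11 mice, with 4 at P3 in normoxia, 4 at P3 in hyperoxia, 5 and 1 at P7, and 2 and 0 at P14. Actc1 and Tnnt2 were nevertheless genes of the smooth muscle cells too, being present in 295 and 274 of the other 357 cells at 52.1 and 12.7 UMIs per 10000. The shares of all cells, the fits by oxygen and age and the comparisons with other types were repeated without the 16 cells.

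**Figure D2:**
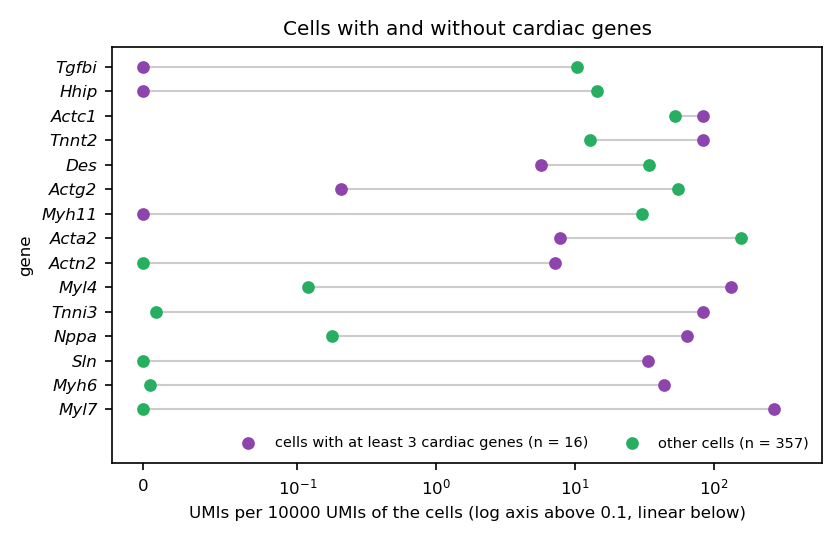
UMIs per 10000 UMIs (horizontal axis, logarithmic above a linear stretch near 0) of heart muscle and smooth muscle genes in the 16 cells with UMIs of at least 3 of 7 heart muscle genes and in the other 357 cells. Myl7, Tnni3 and Myl4 are high in the first set, Acta2 and Myh11 in the second, and Actc1 and Tnnt2 are present in both.

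The first question for the type was whether its share of lung cells differed with oxygen or age. Fibromyo/SMCs made up a mean of 0.547% ± 0.225 of the cells at P3 in normoxia (SD, n = 6 mice; lowest 0.175, median 0.580, highest 0.758) and 0.573% ± 0.295 in hyperoxia (0.240, 0.606, 0.981). At P7 they made up 0.646% ± 0.156 in normoxia (0.463, 0.636, 0.886) and 0.494% ± 0.404 in hyperoxia (0, 0.461, 1.16). At P14 the means were 0.720% ± 0.308 in normoxia (0.202, 0.795, 1.04) and 0.368% ± 0.188 in hyperoxia (0.0967, 0.370, 0.593). The ranges of the 2 oxygen levels overlapped at every age, and each share rests on 0 to 25 cells per mouse. The difference, hyperoxia minus normoxia, was 0.0255 percentage points at P3 (two-sided exact permutation test, p = 0.805, adjusted p = 0.897 over 34 cell types and 3 ages), -0.152 at P7 (exact p = 0.422, adjusted 0.652) and -0.352 at P14 (exact p = 0.0498, adjusted 0.159). None of these passed the adjustment, in a design of 6 against 6 mice that can reach an exact p of 0.00216.

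The mice of each age were spread over 2 pools of tagged cells, 3 from normoxia and 3 from hyperoxia in each, and 1 pool held P3 and P7 mice together. Within the 2 P14 pools the difference was -0.499 and -0.205 percentage points, of the same sign, whereas at P3 it was -0.0796 and 0.131 and at P7 0.0884 and -0.392. Counted against stromal cells only, the P14 mice had 2.39% ± 0.984 Fibromyo/SMCs in normoxia and 1.01% ± 0.443 in hyperoxia, a difference of -1.38 percentage points (exact permutation p = 0.0173, adjusted 0.0623 over 6 types and 3 ages). Without the cardiac muscle-like cells the P14 difference was -0.333 percentage points of all cells (adjusted p = 0.175, exact permutation test). The lower share in hyperoxia at P14 was therefore seen in both pools and against both totals without passing an adjusted p of 0.05. The test of the change in the oxygen effect from P3 to P14 gave -0.377 percentage points (permutation p = 0.0985, adjusted 0.359). Between ages the share differed by 0.173 percentage points from P3 to P14 in normoxia (exact permutation test, adjusted p = 0.435) and by -0.204 in hyperoxia (adjusted p = 0.487), and no other pair of ages passed.

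**Figure D3:**
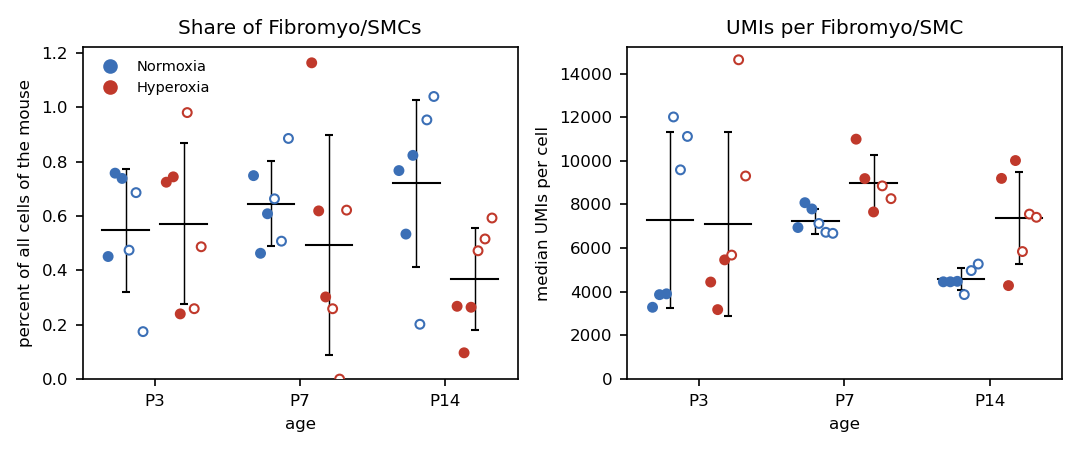
Share of Fibromyo/SMCs among all cells (left, percent) and median UMIs per Fibromyo/SMC (right) in each mouse at P3, P7 and P14, blue for normoxia and red for hyperoxia, filled and open symbols for the first and second pool of an age, with lines for means and bars for SD. The P14 hyperoxic shares lie between 0.0967% and 0.593%, low but overlapping those in normoxia, and the cells of hyperoxic P14 mice hold more UMIs.

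UMIs per cell were higher in hyperoxia at the later ages. The mean over mice of the median UMIs per Fibromyo/SMC was 7297 ± 4034 in normoxia and 7118 ± 4210 in hyperoxia at P3 (exact permutation p = 0.935), 7226 ± 582 and 8991 ± 1261 at P7 (n = 6 and 5 mice, exact p = 0.0108, adjusted 0.0227) and 4585 ± 485 and 7385 ± 2107 at P14 (n = 6 and 6, exact p = 0.0152, adjusted 0.0227). At P3 the spread lay between pools, with means of 3688 and 4364 UMIs in one pool and 10905 and 9872 in the other for normoxia and hyperoxia. Depth was not compared by oxygen in other single types, and a median over all cells also depends on the types present. Over all cells of a mouse, the median UMIs per cell at P14 ran from 2988 to 3596 in normoxia and from 5324 to 7981 in hyperoxia, without overlap, and at P7 the ranges overlapped (4892 to 7562 and 5166 to 7918). CPM values divide out the total but not a change in the make-up of the RNA, and the part of depth in the gene results was not tested beyond drawing equal numbers of cells.

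The second question was which genes of Fibromyo/SMCs differed with oxygen. For all ages together, UMIs were summed per mouse and fitted with age as a covariate over 12 normoxic and 7 hyperoxic mice with at least 10 cells, of which only 1 was hyperoxic at P14. A gene was called changed at an adjusted p below 0.05 (edgeR quasi-likelihood test, Benjamini-Hochberg) with a UMI in at least 10% of cells at 1 oxygen level. The mouse was the replicate, so p-values measure the spread between mice. Of 2190 genes tested, 4 were higher in hyperoxia and 0 lower (0.183% called, 171 genes at an unadjusted p below 0.05, 5 calls with DESeq2). With pools as a block 15 genes were called, and with a mouse left out 0 to 10, the 0 being without hyperoxic P14 replicate 5 and the 10 without hyperoxic P3 replicate 4. The 4 were Phlda3, Rps27l, Tubb4b and Cenpf.

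Phlda3 and Rps27l are both targets of p53, the factor activated by DNA damage. Phlda3, which restrains the kinase Akt (chr1:135766119-135769136, plus strand), had a lowest, median and highest level of 0, 41.6 and 79.4 CPM in the 12 normoxic mice and 112, 182 and 219 CPM in the 7 hyperoxic mice. The groups did not overlap, and the log2 fold change was 1.88 (SE 0.29, adjusted p = 0.00244). Phlda3 had 0 to 9 UMIs in each normoxic mouse and 10 to 39 in each hyperoxic mouse of this fit. It was thus abundant enough to be tested through the hyperoxic mice, and the lack of overlap is no separate result. The call held in all 9 alternatives and was lost in 1 leave-out, that of hyperoxic P14 replicate 5 (log2 fold change 1.76, adjusted p = 0.0653), the only hyperoxic P14 mouse in this fit. Rps27l, a ribosomal protein-like gene (chr9:66946086-66949516, plus strand), had 217, 384 and 562 CPM in normoxia and 544, 617 and 1544 CPM in hyperoxia, overlapping only at the edge, with a log2 fold change of 1.11 (SE 0.21, adjusted p = 0.0218). Its call was kept in all 9 alternatives and in 12 of 19 leave-outs, the adjusted p in the other 7 ranging from 0.0503 to 0.214. Of the 15 p53 targets listed, which did not include Rps27l, 6 were abundant enough to be tested, and 5 of these had a positive fold change, with a median log2 of 1.09 against -0.00 for all genes tested. Since Phlda3 is among them, the direction of the list is not read as a result. Cdkn1a, the cell cycle inhibitor p21 (chr17:29090976-29100727, plus strand), had 13.0, 93.8 and 369 CPM in normoxia and 85.5, 250 and 545 CPM in hyperoxia, a log2 fold change of 1.46 that missed the threshold (SE 0.36, adjusted p = 0.125). It passed when mice with at least 5 cells were used (2.16, adjusted p = 0.00354) and with pools as a block (1.93, adjusted p = 0.00117). The first of these sets adds hyperoxic P7 replicate 4, which had 5 cells and 1695 CPM of Cdkn1a. Bax, which opens mitochondria in apoptosis, had a log2 fold change of 0.67 (adjusted p = 0.370), Ccng1 of 1.58 (adjusted p = 0.163) and Perp of -0.52.

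The other 2 called genes rested on few mice or cells. Cenpf, a kinetochore protein made by dividing cells (chr1:189640606-189688086, minus strand), had 2 UMIs summed over the 12 normoxic mice and 114 UMIs over the 7 hyperoxic mice, 5 of which had any. The ratio of the summed levels was 77.8 (exact 95% interval 21.1 to 651, counting error only), and the fitted log2 fold change of 5.2 (SE 1.01, adjusted p = 0.0224) depends on the prior count. Over all mice, those outside the fit included, only 4 normoxic and 16 hyperoxic cells had a UMI of Cenpf. The call was lost in 7 of the 15 leave-outs that kept the gene in the test (adjusted p 0.0561 to 0.0626) and with DESeq2 (adjusted p = 0.0915), and normoxic P3 replicate 5, which had 7 Fibromyo/SMCs and so lay outside the fit, held 141 UMIs (1945 CPM). With that mouse included, the ratio went the other way at P3, where 4 normoxic mice had 141 and 5 hyperoxic mice 89 UMIs (ratio 0.496, exact 95% interval 0.376 to 0.651, counting error only). Tubb4b, a beta-tubulin, had 81.8, 154 and 213 CPM in normoxia and 87.4, 379 and 1109 CPM in hyperoxia (log2 fold change 1.70, SE 0.34, adjusted p = 0.0224), and the call was lost with mice of at least 5 cells (0.90, adjusted p = 0.281). Of 13 cell cycle genes only 5 passed the filter on low counts, and Cenpf did so through the hyperoxic mice, so their direction is not read as a result. In the 12 normoxic mice of this fit the summed level of the 13 ranged from 469 to 1557 CPM (median 760) and in the 7 hyperoxic mice from 481 to 9461 CPM (median 2170). By age, in mice with at least 5 cells, the ranges overlapped at each age. At P3 the lowest, median and highest sums were 992, 1115 and 8665 CPM in normoxia, the highest in replicate 5, and in hyperoxia the median was 3108 and the highest 5455 CPM. At P7 the lowest, median and highest were 469, 757 and 1557 CPM in normoxia and 481, 1062 and 9461 CPM in hyperoxia, and at P14 the sum ran from 474 to 921 CPM in normoxia and from 509 to 538 CPM in hyperoxia, with Cenpf at 0 UMIs in the 3 hyperoxic mice.

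**Figure D4:**
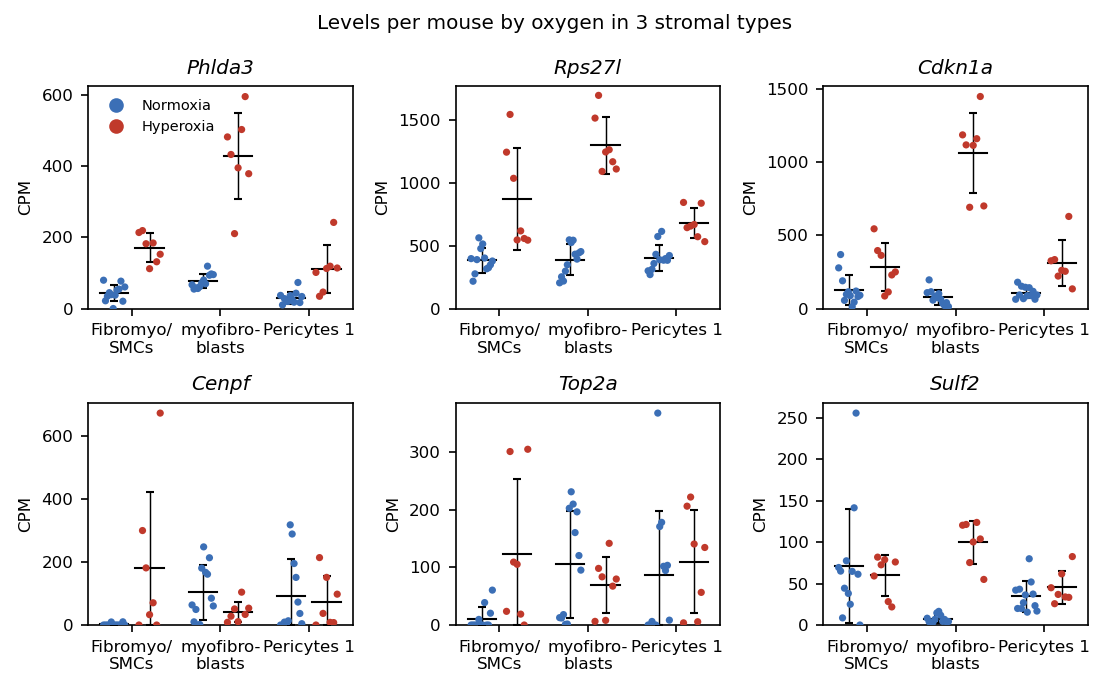
CPM (vertical axes) of Phlda3, Rps27l, Cdkn1a, Cenpf, Top2a and Sulf2 in Fibromyo/SMCs, myofibroblasts and Pericytes 1 of the same 19 mice, each point a mouse, blue for normoxia and red for hyperoxia. The points of Phlda3 do not overlap in Fibromyo/SMCs, Cdkn1a separates widely in myofibroblasts, and Cenpf is near 0 in all normoxic Fibromyo/SMCs shown.

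None of the contractile genes was called for oxygen, which with 0.183% of all genes called is no result about the list. All 31 were tested, 0 were called in either direction by edgeR, 17 had a positive fold change, and the median log2 was 0.02. Acta2 had a log2 fold change of 0.02 (adjusted p = 0.993), Myh11 of 0.05, Actg2 of 0.34, Des of 0.22, Cnn1 of 0.17 and Tagln of 0.13. Actc1 stood at -0.71 (adjusted p = 0.564) and Tnnt2 at -0.83 (adjusted p = 0.202), 2 genes that the cardiac muscle-like cells share, and the summed level of the 7 heart genes reached 19738 CPM in 1 normoxic and 7924 CPM in 1 hyperoxic mouse. Among receptors and channels that set muscle tone, 7 of 16 genes were tested, 1 had a positive fold change, the median was -0.21 and none was called. Chrm2 had 313, 559 and 811 CPM in normoxia and 123, 322 and 454 CPM in hyperoxia, a log2 fold change of -0.62 that missed the threshold (adjusted p = 0.231) and passed it with mice of at least 5 cells (-1.12, adjusted p = 0.00363). Ednrb stood at -0.53 (adjusted p = 0.499) and Hhip at 0.13. None of the 19 tested matrix genes was called (median -0.01), with Eln at -0.28, Aspn at 0.05, Tgfbi at 0.14 and Tnc at 0.28. Of the 8 tested antioxidant genes none was called, nor was any of the 5 tested inflammation genes or the 3 hypoxia targets, counts that again say nothing about these lists beside the 0.183% of all genes. Counts were simulated in this design with 96 genes changed 2-fold and 94 changed 4-fold among 2048. Calls were made for 71.9% of the first and 96.8% of the second. The adjustment is stricter where fewer genes change. The real fit called 4 of 2190 genes, so these rates can overstate what it could find.

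At single ages the data held less. The fit by group used 28 mice with at least 5 cells, 4, 6 and 5 normoxic and 5, 5 and 3 hyperoxic at P3, P7 and P14. Of 2047 genes tested, edgeR called 0 at P3 (101 at an unadjusted p below 0.05, 0 with DESeq2) and 0 at P7 (133, 3 with DESeq2). At P14 it called 2 genes lower in hyperoxia (0.0977% called, 245 at an unadjusted p below 0.05). Simulated 2-fold changes were found in 27.4% of cases there, with 95 genes changed 2-fold and 94 changed 4-fold among 1886. That rate too can overstate what the real fit could find. Foxn3, a forkhead repressor, had 308, 282, 241, 345 and 184 CPM in normoxia and 85.5, 107 and 55.2 CPM in hyperoxia (log2 fold change -1.71, SE 0.34, adjusted p = 0.0275). Brd7, a bromodomain subunit of a chromatin remodeller, had 725, 478, 715, 545 and 417 CPM against 214, 154 and 207 CPM (-1.63, SE 0.33, adjusted p = 0.0275). The groups did not overlap for either gene, but both calls were lost with pools as a block (adjusted p = 0.24 for both), and 0 genes were called when any 1 of the hyperoxic P14 mice (replicates 4, 5 and 6) or normoxic P14 replicate 1, 3 or 5 was left out. All 3 hyperoxic P14 mice of this fit came from the same pool, whereas the normoxic P14 mice came from both. The log2 fold changes of Phlda3 were 1.70 at P3, 1.10 at P7 and 1.94 at P14, those of Rps27l 1.09, 1.12 and 1.56 and those of Cdkn1a 2.25, 2.46 and 1.88, none past the threshold at a single age. The P7 values include hyperoxic P7 replicate 4, a mouse with 5 Fibromyo/SMCs. It had 1695 CPM of Cdkn1a (others 113 to 250) and 2323 CPM of Rps27l (others 442 to 617). The test of a difference between P14 and P3 in the oxygen effect called 0 genes (149 at an unadjusted p below 0.05, 5 with DESeq2).

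The oxygen effect was then set against that in the stromal types most like Fibromyo/SMCs in the same 19 mice, by a test of the difference itself. Against myofibroblasts, 83 of 7971 genes differed (1.04% called), 48 with a more positive oxygen effect in Fibromyo/SMCs (0.602%) and 35 with a more negative one (0.439%). Cdkn1a had the smaller rise in Fibromyo/SMCs, with a mean of 128 CPM in normoxia and 283 CPM in hyperoxia against 75.8 and 1061 CPM in myofibroblasts. In myofibroblasts its range was 13.4 to 196 CPM in normoxia and 692 to 1450 CPM in hyperoxia, and the difference in log2 fold change was -2.72 (SE 0.40, adjusted p = 2.31e-05). Bax went from 139 to 232 CPM in Fibromyo/SMCs and from 164 to 704 CPM in myofibroblasts (difference -1.28). Phlda3 and Rps27l, the 2 p53 targets called in Fibromyo/SMCs, went from 76.9 to 428 CPM and from 388 to 1298 CPM in myofibroblasts, and their differences of -0.53 (adjusted p = 0.734) and -0.55 (adjusted p = 0.175) missed the threshold. Of 15 p53 targets, Cdkn1a and Bax were called with a more negative effect, where 0.439% of all genes were. The median difference was -0.75 against 0.01 over all genes. All 15 passed the filter on low counts with myofibroblasts included, but only 6 in Fibromyo/SMCs alone. In myofibroblasts alone 13 of the 14 tested were called higher in hyperoxia. The direction of the list is therefore not read as a result.

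Among cell cycle genes the called differences had the opposite sign. Of 13, 7 were called with a more positive effect in Fibromyo/SMCs (Cenpf, Cdk1, Top2a, Mki67, Stmn1, Hmgb2 and H2afz), where 0.602% of all genes were, and the median difference of the 13 was 4.22. In Fibromyo/SMCs, Cenpf had 2 UMIs over the 12 normoxic mice. The summed level of the 13 reached 9461 CPM in 1 hyperoxic mouse (median 2170). Such genes are carried by the few mice in which they are high, so the direction of the list is not read as a result. Cenpa, the centromeric histone, which was called but is not in the list, went from 8.39 to 134 CPM in Fibromyo/SMCs and from 115 to 41.4 CPM in myofibroblasts, Top2a, a topoisomerase of dividing cells, from 10.8 to 123 CPM and from 105 to 69.2 CPM, and the histone H2afz from 478 to 1312 CPM and from 1138 to 704 CPM. These are means over mice. Over all mice, the deposited annotation placed 57 of 224 normoxic and 45 of 149 hyperoxic Fibromyo/SMCs in G2M or S phase. Of the 7 calls, 5 were lost with DESeq2, Top2a (adjusted p = 0.0996), Mki67 (0.097), Stmn1 (0.291), Hmgb2 (0.251) and Cdk1 (0.128). Equal numbers of cells ended the calls of Top2a (0.0567), Mki67 (0.229), Stmn1 (0.218) and Hmgb2 (0.131). Normoxic P3 replicate 5, with its 1945 CPM of Cenpf, was not among the 19 mice, and with mice of at least 5 cells, which include it, the difference for Cenpf was 3.97 (adjusted p = 0.00464) in place of 7.31. Genes with a more negative effect included Sulf2, which trims sulphates from heparan sulphate (chr2:166073089-166155663, minus strand). It went from 71.0 to 59.9 CPM in Fibromyo/SMCs and from 7.17 to 100 CPM in myofibroblasts (difference -4.30). Dcn (decorin), the inflammation regulator Anxa1, the adenylate kinase Ak1 and the antiviral membrane gene Ifitm3 were also called on that side, though Dcn and Anxa1 were lost with DESeq2 (adjusted p = 0.193 and 0.140) and with equal numbers of cells (0.305 and 0.597). The calls of Cdkn1a, Cenpa, Cenpf, Sulf2, Ak1, Bax, H2afz and Ifitm3 held in all 5 alternatives and all 19 leave-outs. Of 31 contractile genes 1 was called, beside 1.04% of all genes. This was the filament protein Synm (2.31), a call lost with DESeq2 (adjusted p = 0.244) and with equal numbers of cells (0.177). The median of the list was -0.17.

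Against Pericytes 1, 11 of 3903 genes differed (0.282% called), 9 with a more positive (0.231%) and 2 with a more negative effect (0.0512%) in Fibromyo/SMCs. The first included 3 of the 13 cell cycle genes, Cenpf at 6.87 (adjusted p = 3.94e-05), Top2a at 3.11 and H2afz at 1.51, and also Cenpa at 3.68. With 2 UMIs of Cenpf over the 12 normoxic mice and 114 over the 7 hyperoxic mice, the direction of the list is again not read as a result. With a mouse left out there were from 5 calls (without hyperoxic P7 replicate 6) to 20 (without normoxic P7 replicate 6), and only 1 call was left with mice of at least 5 cells, where Cenpf stood at 2.33 (adjusted p = 0.691). Actc1 went from 6140 to 4095 CPM in Fibromyo/SMCs and from 792 to 875 CPM in Pericytes 1 (difference -1.49, SE 0.26, adjusted p = 0.00268). The Actc1 call held without the cardiac muscle-like cells (-1.32, adjusted p = 0.00139) and was lost when equal numbers of cells were drawn per mouse (-1.72, adjusted p = 0.0818). The number of cells bears on the number of calls, so types were also compared at equal cell numbers. When each mouse gave as many myofibroblasts as it had Fibromyo/SMCs, 84 of 2225 genes were called for oxygen in myofibroblasts (3.78%), and as many Pericytes 1 gave 2 of 2094 genes (0.0955%), beside the 4 of 2190 in Fibromyo/SMCs.

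The third question was how the type matured. In normoxia, 228 of 2047 genes differed between P3 and P14 (11.1% called), 139 higher (6.79%) and 89 lower (4.35%) at P14, over 4 and 5 mice. Without normoxic P14 replicate 3 the count was 117 and without replicate 1 it was 131. The P14 mice were pooled only with each other, so pool and age cannot be told apart. The median UMIs per cell of the mice in this fit were 3290, 3869, 3906 and 9587 at P3 and 4457 to 5272 at P14.

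Of 24 listed matrix genes, 19 were tested, 5 rose and 1 fell, where 6.79% of all genes were called higher and 4.35% lower. The median log2 fold change of the list was 0.65 against -0.07 for all genes. Eln stood at 248, 263, 337 and 235 CPM at P3 and at 3226, 6859, 4885, 1545 and 1667 CPM at P14, with no overlap and a log2 fold change of 3.78 (SE 0.63, adjusted p = 0.000736). The values of 3226, 6859 and 4885 CPM came from 1 P14 pool and those of 1545 and 1667 CPM from the other. The normoxic P7 mice had 359 to 2321 CPM, above all P3 mice and overlapping the P14 mice. Postn (periostin, a matrix protein that binds integrins) had 381, 200, 428 and 221 CPM at P3 and 814 to 1134 CPM at P14 (1.68, adjusted p = 0.00126). Sparcl1 (1.02), Timp3, an inhibitor of metalloproteases (1.11), and Ltbp4, which assembles elastic fibres (1.30; adjusted p = 0.0675 with pools as a block), rose too, and Mfap2, a microfibril protein, fell by 1.02 on the log2 scale. Sod3, the secreted superoxide dismutase (chr5:52363791-52371418, plus strand), had 0, 25.0, 25.9 and 27.6 CPM at P3 and 248, 347, 241, 133 and 320 CPM at P14 (3.55, SE 0.48, adjusted p = 6.59e-05). The P3 levels stand for only a few UMIs per mouse, so the size of the rise depends on the prior count. Sod3 was the only 1 of 7 tested antioxidant genes that was called, beside the same 6.79% of all genes called higher. Itga8, the alpha 8 integrin, rose by 2.62 (adjusted p = 0.00453) and Igfbp5, which binds insulin-like growth factors, by 2.54 (adjusted p = 0.0183; 0.091 with pools as a block).

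Some genes of calcium handling and muscle tone also rose. Of 7 tested calcium genes all had a positive fold change, with a median of 1.16, and 2 were called. Atp2a2, the pump that refills the sarcoplasmic store, had 172, 990, 1089 and 676 CPM at P3 and 1489, 1563, 1284, 3190 and 1280 CPM at P14 (1.30, adjusted p = 0.0215), and Itpr1, the channel that releases the store, rose by 1.19 (adjusted p = 0.0347; 0.0634 with pools as a block). Pde5a, which breaks down cyclic GMP, had 401, 175, 726 and 538 CPM at P3 and 1568, 1107, 1732, 1000 and 863 CPM at P14 (1.52, adjusted p = 0.00480). Of the 4 tested airway muscle genes all had a positive fold change and 2 were called, Lgr6 (1.67) and Ednrb (1.01, both adjusted p = 0.0279; 0.0979 and 0.0813 with pools as a block), while Chrm2 (0.99, adjusted p = 0.0567) and Hhip (1.10, adjusted p = 0.0655) fell just outside. The contractile list had 4 called of 31 tested, 25 positive and a median of 0.41, few calls to set beside the 6.79% of all genes that were called higher. The called genes were the actin crosslinkers Flna (1.13, SE 0.24, adjusted p = 0.00400) and Actn1 (0.83, adjusted p = 0.0492; 0.0721 with pools as a block) and the myosin phosphatase genes Ppp1r14a (1.42, adjusted p = 0.00400) and Ppp1r12b (0.96, adjusted p = 0.0370; also 0.0721 with pools as a block). The filament genes themselves were not called, with Acta2 at -0.07, Myh11 at 0.73 (adjusted p = 0.134), Actg2 at -0.40, Des at 0.41, Cnn1 at 0.27 and Tagln at 0.12.

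Klf9 and Per1 were among the 6 largest increases. Klf9, a target of glucocorticoid and thyroid hormone, had 38.1, 75.2, 25.9 and 96.6 CPM at P3 and 427, 760, 767, 178 and 233 CPM at P14 (2.97, adjusted p = 0.000756). The values of 427, 760 and 767 CPM came from 1 P14 pool and those of 178 and 233 CPM from the other. Per1, a clock gene that glucocorticoids induce, had 3 UMIs in the 4 P3 mice and 62 in the 5 P14 mice, a ratio of 12.8 (exact 95% interval 4.17 to 63.6, counting error only), with an adjusted p of 0.00400.

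Among genes that fell, several calls rested on 1 mouse. Of 13 cell cycle genes 8 passed the filter on low counts and 2 were called lower, where 4.35% of all genes were, and since such genes pass through the few mice in which they are high, their direction is not read as a result. Mki67, the Ki-67 proliferation antigen, fell by 3.33 (adjusted p = 0.0315), but normoxic P3 replicate 5 had 842 CPM where the other P3 mice had 37.6 to 51.8, and without it the log2 fold change was -0.91 (adjusted p = 0.637). Stmn1, a tubulin-binding protein, went from -2.49 to -1.74 (adjusted p = 0.152) and Arl6ip1 from -2.61 to -0.68 (adjusted p = 0.607) without that mouse. Sftpc, the surfactant protein of alveolar type 2 cells, stood at 16763 CPM in normoxic P3 replicate 1 and at 426 to 580 CPM in the other P3 mice, and its log2 fold change went from -3.08 to -0.02 (adjusted p = 0.988) without it. The summed level of the 9 epithelial genes ranged from 1058 to 20730 CPM in normoxic mice, and its part in the other genes that fell was not tested. Red cell genes were uneven too, the sum of 4 globin genes reaching 26326 CPM in 1 normoxic P7 and 16436 CPM in 1 normoxic P14 mouse, against at most 38.1 CPM in normoxic P3 mice and 305 CPM in any hyperoxic mouse, and their part was not tested. Fabp5, a fatty acid carrier (-3.31, adjusted p = 0.00480), lost its call without normoxic P3 replicate 2 (-2.29, adjusted p = 0.0882). Ptn (pleiotrophin, -3.21, adjusted p = 0.0357; 0.0565 with pools as a block) and the Wnt antagonist Sfrp2 (-2.57, adjusted p = 0.0247; 0.0615 with pools as a block) were also lower at P14.

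**Figure D5:**
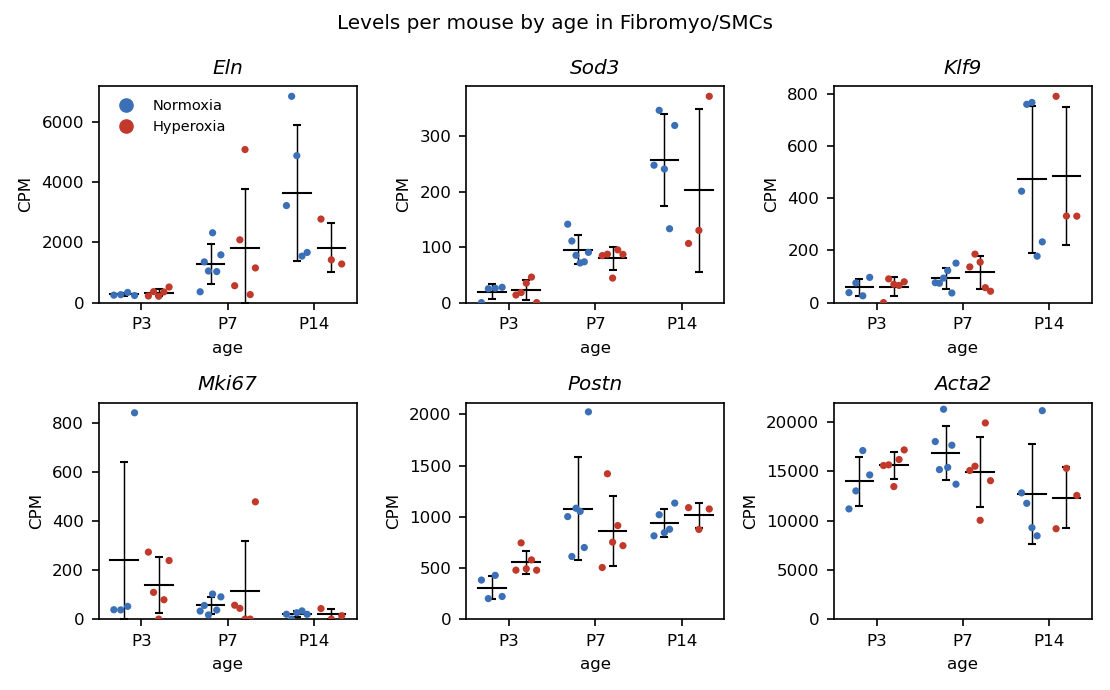
CPM (vertical axes) of Eln, Sod3, Klf9, Mki67, Postn and Acta2 in Fibromyo/SMCs of each of 28 mice with at least 5 cells at P3, P7 and P14, blue for normoxia and red for hyperoxia. Eln, Sod3 and Klf9 are higher in every P14 mouse than in any P3 mouse of the same oxygen level, Mki67 is high in a few mice only, and Acta2 shows no step with age.

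The steps within this interval were smaller. From P3 to P7 in normoxia 1 gene was called (0.0489% called, 250 at an unadjusted p below 0.05), Postn, with a log2 fold change of 1.81 (SE 0.31, adjusted p = 0.00373) and 612 to 2026 CPM at P7. From P7 to P14, 61 genes were called (2.98% called), 40 higher (1.95%) and 21 lower (1.03%), but 16 without normoxic P14 replicate 3 and 22 without normoxic P7 replicate 2. Atp2a2 (1.43), the endothelin A receptor Ednra (1.62), Sod3 (1.45) and Ltbp1 (1.52), which holds latent TGF-beta in the matrix, rose in this step, as did Klf9 (2.30), the convertase Pcsk5 (2.98; adjusted p = 0.0618 with pools as a block) and Enpp2, which makes lysophosphatidic acid (2.71). Ptn (-3.46) and Casq1, the calcium store protein of fast skeletal muscle (-2.62), fell. None of the 31 contractile genes was called in this step by edgeR, and their median was 0.02.

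In hyperoxia, 32 of 2047 genes differed between P3 and P14 (1.56% called), 24 higher (1.17%) and 8 lower (0.391%), over 5 and 3 mice. The calls rested on few mice, with 3 left without hyperoxic P14 replicate 4 or replicate 6 and 17 without replicate 5. Among those named, the call of Id3 alone held without each of the 3, while Eln, for one, had an adjusted p of 0.219, 0.055 and 0.072 without replicates 4, 5 and 6. Eln had 219, 364, 211, 355 and 518 CPM at P3 and 2777, 1421 and 1283 CPM at P14 (2.48), without overlap. Sod3 rose by 2.94 and Klf9 by 3.03, with 790, 332 and 331 CPM of Klf9 at P14. Mgp, which keeps matrix from calcifying, rose by 3.20 (adjusted p = 0.0388) and Id3, a target of BMP signalling, by 2.40 (adjusted p = 0.00149). The Wnt ligand Wnt5a (1.98) and Ltbp1 (1.64) also rose. Atp2a2 stood at 513, 746 and 704 CPM in the hyperoxic P14 mice, and its oxygen difference at P14 was not called (-1.44, adjusted p = 0.139). Stmn1 had 151 UMIs in the 5 P3 mice and 0 in the 3 P14 mice. With 3 counts in place of the 0 the ratio of the summed levels was 28.6, leaving out the counting error of the 151. Stmn1 is in the cell cycle list, whose genes pass the filter through mice in which they are high. Its direction is therefore not read as a result. Tnnt3, the fast skeletal troponin T, fell by 4.22, from 279 to 560 CPM at P3 to between 0 and 27.6 CPM at P14. None of the 31 contractile genes was called by edgeR (median 0.10). With mice of at least 10 cells a single hyperoxic P14 mouse was left and 1 gene was called. The age effects of the 2 oxygen levels were compared only through the test between P14 and P3 given above.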

How the data were processed

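Single-cell 3′ RNA sequencing was done on perfused, enzymatically digested lungs of 36 pups, whose cells were tagged per mouse (MULTI-seq), pooled and loaded as 6 libraries. The deposited files hold raw UMI counts per gene and cell, made by the authors with Cell Ranger 3.0.2 on mm10, and an annotation with the cluster, age, oxygen and barcode of each cell. The authors kept cells with over 200 genes and up to 20% mitochondrial reads, and removed cells with more than 1 mouse barcode. No doublet caller was run here. The highest mitochondrial share in the type was 20.8%.

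Cells were taken by the deposited cluster, with no new clustering. A mouse is a pool, barcode, age and oxygen level in the annotation, since the labels describe libraries rather than mice. Counts of 22100 genes were summed per mouse and tested with the edgeR quasi-likelihood test (edgeR 4.0.16, limma 3.58.1, R 4.3.3; TMM scaling, filterByExpr), with mice of at least 10 cells for all ages and type comparisons and of at least 5 cells by age, and Benjamini-Hochberg adjustment over all genes tested. The type comparisons kept the mouse as a block. Shares and depths were compared by exact permutation tests (scipy 1.17.1). DESeq2 1.42.0 was an alternative. The pipeline was tested on simulated data with known changes. Other alternatives were no filter on low counts, pools as a block, other minimum numbers of cells, equal numbers of cells, no age covariate, no cardiac muscle-like cells and leaving out each mouse.

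Genes were named from the largest changes in each direction (8 for all ages, 6 elsewhere) if their average log2 CPM reached 5, from called list members, and from a set of muscle and stromal genes always given. Lists covered contractile, airway muscle, vascular, myofibroblast, fibroblast, matrix, calcium, receptor, p53, antioxidant, inflammation, hypoxia, TGF-beta and BMP, hedgehog and IGF, cell cycle, immediate early, cardiac, epithelial, endothelial, immune, mesothelial and erythroid genes. The members and lists were chosen with earlier results of these data known.

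Pools, each with 3 normoxic and 3 hyperoxic mice of an age, were a block in an alternative fit only. That block is a term for pool within each age, so it removes differences between the pools of an age but cannot separate pool from age. Intervals and limits at a count of 0 cover counting error only.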

Additional observations from a re-analysis of the deposited data

Results flagged for a closer look

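Among 116 sets of 4 to 6 mice, each the share, the depth or a gene's level in 1 group, 20 had 1 mouse far from the others. Chance flags about 1 set in 20 where values vary evenly, which is not so for sets in which all other mice were at 0. Cenpf stood at 1945 CPM in normoxic P3 replicate 5 (others 0), at 1015 CPM in hyperoxic P3 replicate 6 (others 32.9 to 301), at 674 CPM in hyperoxic P7 replicate 6 (others 0 to 70.7), at 10.2 CPM in normoxic P7 replicate 4 and at 9.69 CPM in normoxic P14 replicate 6 (others 0). Hyperoxic P7 replicate 4 stood apart for Cdkn1a (1695 CPM, others 113 to 250), Rps27l (2323 CPM, others 442 to 617) and Tagln (16870 CPM, others 9605 to 11069). Rps27l was also apart in normoxic P7 replicate 2 (779 CPM, others 258 to 378), and Tubb4b in normoxic P3 replicate 5 (1131 CPM, others 114 to 213) and normoxic P7 replicate 5 (442 CPM, others 81.8 to 166).

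Among muscle and stromal genes, Cnn1 was apart in normoxic P14 replicate 6 (4585 CPM, others 1654 to 2263) and normoxic P7 replicate 3 (4411 CPM, others 2313 to 3060), the latter also for Tagln (14547 CPM, others 10047 to 11369). Actc1 was low in normoxic P3 replicate 1 (1488 CPM, others 4748 to 5352), the mouse with the high Sftpc level. Hhip was high in normoxic P7 replicate 5 (1767 CPM, others 890 to 1119) and Ednrb in normoxic P7 replicate 6 (741 CPM, others 463 to 529). Pdgfra was found in only 1 mouse of a group in normoxic P14 replicate 1 (9.93 CPM), hyperoxic P3 replicate 3 (35.1 CPM) and normoxic P3 replicate 3 (13.0 CPM).

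The oxygen effect differed from that in myofibroblasts, by the interaction test, with differences in log2 fold change of 7.31 for Cenpf, 5.39 for Cenpa, 4.35 for the mitotic kinase Cdk1, 4.22 for Top2a, 3.96 for Cks2 and 3.58 for Spc24, and of -7.54 for Trib2, -4.30 for Sulf2, -3.13 for Dcn, -2.90 for Anxa1, -2.90 for Ak1 and -2.72 for Cdkn1a. The calls of Spc24 and Cks2 were lost with DESeq2 (adjusted p = 0.438 and 0.0510), and that of Spc24 also with equal numbers of cells (0.161). Those of Cdk1, Top2a, Dcn and Anxa1 were lost in alternatives given above. Trib2 had 17 UMIs in the 12 normoxic and 0 in the 7 hyperoxic mice. With 3 counts in place of the 0 the ratio of the summed levels was 4.15, leaving out the counting error of the 17. The fitted value of Trib2 depends on the prior count. Against Pericytes 1 the differences were 6.87 for Cenpf, 3.68 for Cenpa, 3.52 for Cks2, 3.11 for Top2a, 2.08 for the adhesion molecule Ncam1 and 1.51 for H2afz, and -2.50 for Fabp5 and -1.49 for Actc1. The Fabp5 call was lost without the cardiac muscle-like cells (-0.73, adjusted p = 0.879).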

How the results depend on the processing

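Of the values and counts that answer a comparison, 316 stayed the same under an alternative, 94 moved and 2 reversed. Tests of shares and depths stayed the same if they kept their direction and side of the threshold. Counts stayed the same within 1.5 times, and the marker shares without thinning were always counted as moved. Of single named genes 3677 kept their call, 513 lost it and 29 gained it. The cause was not tested except where fewer cells, mice or genes entered. For oxygen over all ages (4 calls) the counts were 59 without a filter, 15 with pools as a block, 8 and 12 with mice of at least 5 and 3 cells, 9 without the age covariate, 2 with 10 cells per mouse and 0 to 10 with a mouse left out. At P3 (0 calls) they were 19 without a filter, 1 with pools as a block and 0 to 1 with a mouse left out, and at P7 (0) 3 with DESeq2, 39 without a filter and 0 to 1. At P14 (2) they were 8 with DESeq2, 30 without a filter, 0 with pools as a block, 5 without the cardiac muscle-like cells, 0 with at least 3 or 10 cells and 0 to 4 with a mouse left out. The test between P14 and P3 (0) gave 5 with DESeq2, 21 without a filter, 2 without the cardiac muscle-like cells and 0 to 4. In normoxia P3 to P7 (1) gave 10 with DESeq2, 68 without a filter, 0 and 4 with at least 3 and 10 cells and 1 to 5 with a mouse left out, P7 to P14 (61) gave 67 with pools as a block, 19 with at least 10 cells and 16 to 71, and P3 to P14 (228) gave 187 with pools as a block and 117 to 318. In hyperoxia P3 to P14 (32) gave 88 without a filter, 50 with pools as a block, 56 and 1 with at least 3 and 10 cells and 3 to 39. Against myofibroblasts (83) there were 43 calls with DESeq2, 19 with equal cells and 59 to 88 with a mouse left out, and against Pericytes 1 (11) 4 with DESeq2, 43 without a filter, 1 with at least 5 cells, 5 with equal cells, 18 without the cardiac muscle-like cells and 5 to 20. The share difference from P3 to P7 in hyperoxia was 0.0206 without the mouse with fewest cells, and the P3 difference in UMIs per cell 452 with mice of at least 5 cells, both of opposite sign to the values over all mice. Without thinning the marker shares were 96.5% for Acta2 and 95.4% for Actg2, Des and Myh11. The shares and comparisons with other types without the cardiac muscle-like cells were added after seeing the data. With 0 to 25 cells per mouse, simulated 2-fold changes were found in 43.2% of cases for P3 to P14 in normoxia and 28.4% for the difference from myofibroblasts, so a gene that was not called may still differ.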

Other observations

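A few signalling genes of Fibromyo/SMCs were higher at P14 than at P3 in normoxia, a comparison in which 6.79% of all genes were called higher. Of 22 TGF-beta and BMP genes, 15 were tested and 3 were higher at P14 than at P3, with a median log2 fold change of 0.27 against -0.07 for all genes. Ltbp1 had 57.2 to 82.8 CPM in the 4 P3 mice and 167 to 278 CPM in the 5 P14 mice, with no overlap (1.67). The BMP receptor Bmpr2 (1.36) was called as well, and Bmpr1a (1.03) was called but lost without the cardiac muscle-like cells (0.89, adjusted p = 0.072). Of 17 hedgehog and insulin-like growth factor genes, 9 were tested and 2 were higher, Igfbp5 (2.54, lost with pools as a block, adjusted p = 0.091) and the receptor Igf1r (1.12). Igf1r had 125 to 194 CPM at P3 and 278 to 336 CPM at P14 in normoxia, and 119 to 171 CPM in the 3 hyperoxic P14 mice, without a call for oxygen at P14.

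All 13 immediate early genes, which respond within minutes to stimulation and to tissue digestion, were abundant enough to be tested by age, and 2 were higher at P14 in normoxia, beside the same 6.79% of all genes. Egr1 had 534 to 765 CPM at P3 and 1231 to 2361 CPM at P14 (1.44), and Fosb 153 to 311 CPM and 278 to 913 CPM (1.54). In hyperoxia 1 of the 13 was called higher at P14, beside 1.17% of all genes. This was Zfp36, which destabilises inflammatory transcripts (1.96), with 687 to 1025 CPM against 109 to 335 CPM at P3. None of the 13 was called for oxygen over all ages by edgeR (median 0.27, 10 positive). With 0.183% of all genes called there, this is no result about the list.

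At P14, 0 of the 7 tested receptor and channel genes were called for oxygen by edgeR (median log2 fold change -0.60) and 0 of the 5 tested p53 targets (median 1.35), where 0.0977% of all genes were called. The direction of the p53 list is not read as a result here either.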
